A study of Mus musculus with 35 samples.

Results

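The genes described here are the matrix metalloproteases (Mmp), the ADAM and ADAMTS proteases, the ADAMTS-like proteins (Adamtsl) and the tissue inhibitors of metalloproteases (Timp) of the mouse kidney. A gene belongs here if the platform's annotation gives it a symbol of Mmp, Adam or Adamts followed by a number, or one starting with Adamtsl, or if it is Timp1, Timp2, Timp3 or Timp4. This gave 70 genes of the 18193 on the array, namely 18 Mmp, 28 Adam, 15 Adamts, 5 Adamtsl and 4 Timp genes. Each was read from its brightest probe set, the one with the highest mean signal over all arrays. RNA came from whole kidneys of FVB/NJ mice, and each array measured 1 RNA sample. Mice of 2 months gave 6 diabetic and 6 control samples, those of 4 months 7 diabetic and 4 control samples, and those of 8 months again 6 of each. The series title calls the diabetic mice OVE26, a transgenic line that overexpresses calmodulin in pancreatic beta cells and becomes diabetic when young. Effects of the transgene itself on the kidney were not tested, and in this design they cannot be told apart from those of diabetes. The labels call the other mice controls and give them the same strain name. They do not say whether each array was a separate animal, so p-values here measure the spread between arrays, which may be partly technical. The summed signal of 6 proximal tubule markers was 37103 to 47512 on diabetic arrays and 49422 to 51138 on control arrays of 8 months, so markers of the labelled tissue were present.

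Matrix metalloproteases cut collagens, elastin, laminins and other matrix proteins. They are made as inactive precursors, are activated by other proteases such as plasmin or by each other, and are blocked by the Timps, small secreted proteins that bind the active site. ADAM proteases sit in the cell membrane and shed the outer parts of growth factors, cytokine receptors and adhesion molecules, while ADAMTS proteases are secreted and cut proteoglycans and procollagens. In diabetic kidney disease matrix builds up in the glomeruli and between the tubules, and both the proteases and their inhibitors are known for their part in that balance.

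Of the 70 genes, 36 had a mean log2 signal of at least 5.27 over all arrays, the 40th percentile of all probe sets, and were tested among the 13004 genes above that filter. The other 34 were tested among all 18193 genes, with no filter. The filter ran between genes of interest: Adam1b (5.19), Timp1 (5.21) and Adamts4 (5.24) lay just under it, and Adam8 (5.28), Mmp10 (5.37) and Adam1a (5.58) just over it. Adam8 passed through its diabetic arrays of 8 months. A gene was called when its limma p, adjusted by Benjamini-Hochberg over all genes of its fit, was under 0.05. Differences are log2 signal on diabetic arrays minus control arrays of the same age, followed by the standard error of the fit. Arrays of different ages may have been scaled apart, since the array means were 6.43 to 6.44, 6.02 to 6.04 and 6.54 in 2-, 4- and 8-month diabetic arrays, so levels were not compared between ages.

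At 8 months the inhibitor Timp1 and the macrophage elastase Mmp12 rose 4.12-fold and 4.26-fold in diabetic kidneys, and the leukocyte protease Adam8, the gelatinase Mmp2 and the membrane-type protease Mmp14 rose by between 1.80-fold and 2.16-fold. Of the 36 genes above the filter, 12 rose and 1, Adamts8, fell. Over all genes above the filter, 9.87% were called higher and 6.95% lower. The share called higher was larger among the members, a difference that was not tested. The 12 include Adam8, which passed the filter through the same diabetic arrays on which it was high, so its call adds nothing to that comparison. Of the 34 dimmer genes, 5 rose (Mmp12, Timp1, Adamts4, Mmp3 and Adamts12) and 2 fell (Mmp13 and Adam5), where 7.88% of all 18193 genes were called higher and 5.19% lower. At 2 and 4 months none of the 36 genes was called in either direction by limma. The median difference of the 36 genes at 8 months was 0.10 and that of all 70 genes was -0.04, against 0.00 over the 13004 and -0.02 over the 18193 genes. At 8 months 6 members had every diabetic array above every control array and 2 had every diabetic array below, where 4.29% and 3.29% of all genes did so.

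**Figure D1:**
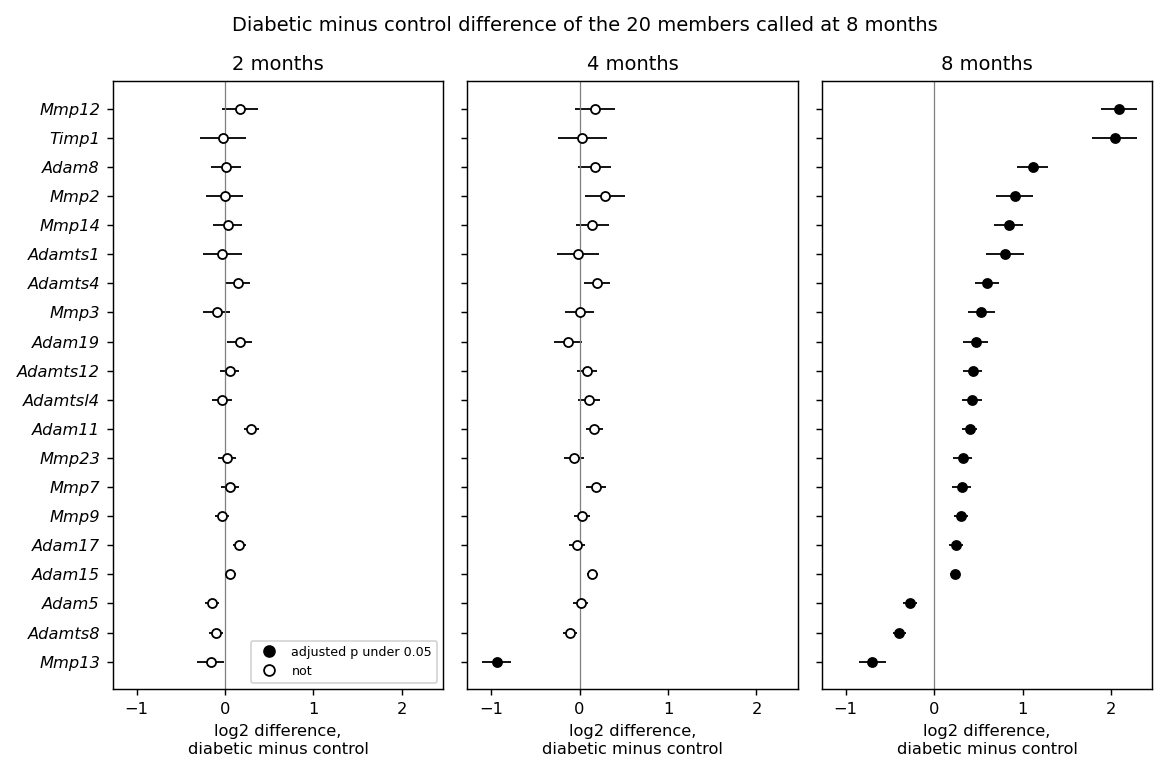
Difference of log2 signal, diabetic minus control, at 2, 4 and 8 months for the 20 members called at 8 months in the fit of all 18193 genes. Points are differences, bars their standard errors, and filled points have an adjusted p under 0.05, which at 4 months holds for Mmp13 alone and at 2 months for none.

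Among the inhibitors, Timp1, which binds most secreted metalloproteases, was the member with the second largest difference at 8 months and stood 23rd of all 18193 genes in order of difference. On the diabetic arrays its log2 signal was 7.04, 8.14, 8.82, 5.97, 6.12 and 7.35, against 5.33, 5.10, 5.23, 5.24, 5.06 and 5.23 on the control arrays. All 6 diabetic arrays lay above all 6 control arrays, and the diabetic arrays were spread over a far wider range. The difference was 2.04 ± 0.26, a 4.12-fold rise (adjusted p = 7.3e-07, limma over all genes). In a limma fit of the 8-month arrays alone, with their own spread, the adjusted p was 0.0047. At 2 months Timp1 averaged 6.01 ± 0.15 on diabetic arrays and 6.03 ± 0.22 on control arrays (SD, n = 6 each), with an adjusted p of 0.989 in limma. At 4 months it averaged 3.24 ± 0.13 on 7 diabetic arrays and 3.20 ± 0.10 on 4 control arrays, with an adjusted p of 0.988 in limma. The difference at 8 months exceeded that at 2 months by 2.06 ± 0.37 (adjusted p = 0.00083, limma over all genes) and that at 4 months by 2.01 ± 0.38 (adjusted p = 0.0057).

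The other inhibitors were not called. Timp3, which binds to the matrix and also blocks several ADAM and ADAMTS proteases, averaged 12.12 ± 0.15 on diabetic and 12.16 ± 0.13 on control arrays of 8 months (SD, n = 6 each), a difference of -0.04 ± 0.15. Timp2, which joins Mmp14 at the cell surface in the activation of Mmp2, ranged from 9.45 to 10.51 on diabetic arrays and from 9.31 to 9.69 on control arrays, a difference of 0.21 ± 0.11 with an adjusted p of 0.216 in limma. Diabetic array 3 gave its highest value, and the other 5 diabetic arrays lay between 9.45 and 9.70, within or close to the range of the controls. Timp2 has 6 probe sets, and a dimmer one was called at 8 months, with a difference of 0.48 ± 0.13 (adjusted p = 0.0176, limma over all probe sets), while the other dimmer ones were not. The same held for 2 other members not called on their brightest probe set, named here after their values were seen. A dimmer probe set of Adamts16 differed by 0.46 ± 0.12 (adjusted p = 0.0077), against -0.10 ± 0.09 on the brightest, and one of Mmp19 by 0.36 ± 0.09 (adjusted p = 0.0091), against 0.10 ± 0.09. Timp4 differed by 0.08 ± 0.11.

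Several Mmp genes lie side by side on mouse chromosome 9, in the order Mmp13, Mmp12, Mmp1b, Mmp3, Mmp1a, Mmp10, Mmp8, Mmp27, Mmp20 and Mmp7 along the protein-coding genes. Of these, Mmp12, Mmp3 and Mmp7 rose at 8 months and Mmp13 fell, while the other measured ones were not called, and Mmp27 was not analysed here. Promoters of collagenases and stromelysins are known for a site of the factor AP-1, so the promoters of all members in the RefSeq table were searched for TGACTCA or its reverse complement TGAGTCA in the 250 bases before the start. The search covered 41 of the 70 members, with 46 starts. The letters were found in 8 members, or 19.5% of those 41, against 5.16% of the 27025 genes in the table, counting a gene when any of its starts held them. By starts, it was 17.4% of 46, against 4.46% of all 32851. Of the 13 members with a promoter that were called higher at 8 months, 4 held it (Adam19, Mmp12, Mmp3 and Mmp7), as did Mmp13, the only member called lower that has a promoter in the table. Among the 27 members not called, 3 held it, namely Mmp10, Mmp1a and Mmp1b. All members that held it, except Adam19, are among these neighbours on chromosome 9, so the shares rest mostly on neighbouring genes. The calls of Adam19, Mmp3 and Mmp7 were lost without diabetic array 3 of 8 months. A link between the letters and the calls was not tested. Timp1 and Adam8 had none in this window. The 100 bases before the start are shown for the neighbours that were called in either direction and for the uncalled Mmp10, to set genes with the same letters and different measurements beside each other (RefSeq, build GRCm38.p6, 5' to 3').
Mmp12, chr9:7347274-7347373, + strand: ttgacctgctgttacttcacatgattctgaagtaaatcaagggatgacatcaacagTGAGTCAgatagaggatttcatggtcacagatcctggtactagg
Mmp3, chr9:7445722-7445821, + strand: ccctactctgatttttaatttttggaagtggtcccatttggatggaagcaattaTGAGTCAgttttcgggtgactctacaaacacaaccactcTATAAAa
Mmp7, chr9:7691990-7692089, + strand: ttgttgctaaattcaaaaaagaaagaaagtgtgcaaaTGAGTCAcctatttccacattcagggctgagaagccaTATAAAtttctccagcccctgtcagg
Mmp13, chr9:7272414-7272513, + strand: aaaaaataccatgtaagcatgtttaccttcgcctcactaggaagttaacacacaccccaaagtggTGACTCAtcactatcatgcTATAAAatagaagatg
Mmp10, chr9:7502242-7502341, + strand: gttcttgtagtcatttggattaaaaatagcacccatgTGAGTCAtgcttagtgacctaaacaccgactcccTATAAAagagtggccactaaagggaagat
Capitals mark the AP-1 letters and the TATA box letters TATAAA, both searched on both strands with no overlap between them. TATAAA or its reverse complement occurred in 12.37% of all starts in 250 bases, and in 23.9% of the 46 starts of members. In 100 bases, the length shown here, the letters occurred in 5.56% of all starts. For Mmp12 and Mmp7 the start that held the AP-1 letters was chosen, and the other start of each in the table did not hold them. The AP-1 letters ended between 29 and 57 bases before the start in these 5 windows, and the Mmp12 window held no TATAAA. A match describes the letters only and shows no binding.

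Mmp12, the macrophage elastase, cuts elastin and had the largest difference of all members, at place 20 of 18193 genes. On the diabetic arrays of 8 months its log2 signal was 7.04, 7.20, 8.60, 6.14, 6.49 and 6.78, against 5.09, 5.21, 4.94, 4.76, 4.62 and 5.10 on control arrays. The groups did not overlap. The difference was 2.09 ± 0.20, a 4.26-fold rise (adjusted p = 6.9e-09, limma over all genes). In a limma fit of the 8-month arrays alone, with their own spread, the adjusted p was 0.00118. At 2 months the difference was 0.17 ± 0.20 and at 4 months 0.17 ± 0.22, and the groups overlapped at both ages. The difference at 8 months exceeded that at 2 months by 1.92 ± 0.29 (adjusted p = 9.8e-05) and that at 4 months by 1.91 ± 0.30 (adjusted p = 0.0012), both in limma.

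Mmp13, a collagenase that cuts fibrillar collagen, moved the other way from its neighbour Mmp12. Its signal at 8 months was 4.39, 4.64, 4.75, 4.76, 4.11 and 4.79 on diabetic arrays, against 5.42, 5.35, 5.29, 5.21, 5.31 and 5.04 on control arrays. Every diabetic array lay below every control array, and the difference was -0.70 ± 0.15, or 1.62-fold lower (adjusted p = 0.0014, limma over all genes). At 4 months it was 3.63, 3.46, 3.11, 3.45, 2.81, 3.51 and 3.48 on diabetic arrays, against 3.74, 4.36, 4.50 and 4.53 on control arrays, again without overlap. That difference was -0.93 ± 0.17 (adjusted p = 0.0036), the only call of a member at 4 months, where 0.28% of all 18193 genes were called higher and 0.368% lower. It missed the threshold without control arrays 3 and 4, which have the highest control values, at -0.70 with an adjusted p of 0.418 in limma. At 2 months it was -0.16 ± 0.15. Its mean over all arrays lay under the filter, the files used here give no detection call, and no test of the differences between ages passed for it.

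Mmp3, a stromelysin that cuts proteoglycans and activates other metalloproteases, was 4.40, 5.16, 6.08, 4.99, 4.70 and 5.12 on diabetic arrays and 4.43 to 4.66 on control arrays of 8 months. Array 1 lay below the controls and array 3 stood highest. The difference was 0.54 ± 0.15 (adjusted p = 0.0145, limma over all genes), and without diabetic array 3 it was 0.33 with an adjusted p of 0.0568. Mmp7, matrilysin, an epithelial protease made by injured tubules, ranged from 6.08 to 6.96 on diabetic arrays and from 6.03 to 6.21 on control arrays. Its difference was 0.31 ± 0.10 (adjusted p = 0.036, limma), and without diabetic array 3 it was 0.20 with an adjusted p of 0.16. The call of Mmp7 was lost under 9 of 19 alternatives, among them leaving out any of several other single arrays.

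Mmp2, a gelatinase that cuts denatured and basement membrane collagen, was 6.71, 6.98, 8.78, 7.00, 6.76 and 7.05 on diabetic arrays, against 5.74, 6.24, 5.99, 6.57, 6.65 and 6.62 on control arrays. The groups did not overlap, but 5 diabetic arrays lay between 6.71 and 7.05 and array 3 stood alone above them. The difference was 0.91 ± 0.21, or 1.88-fold (adjusted p = 0.0021, limma). Without diabetic array 3 it was 0.60 (adjusted p = 0.0015), and without that array and control array 1, the lowest control, it was 0.49 (adjusted p = 0.0061). Fitted to the arrays of 8 months alone, with their own spread, its adjusted p was 0.0539, and Adamts1 (0.0518), Mmp7 (0.0786), Adam19 (0.0897), Mmp3 (0.103) and Mmp23 (0.147) missed the threshold in that limma fit too. Mmp9, the other gelatinase, which is made mainly by leukocytes and injured epithelium, was 5.77 to 6.14 on diabetic arrays and 5.57 to 5.74 on control arrays, without overlap. Its difference was smaller, at 0.31 ± 0.08 or 1.24-fold (adjusted p = 0.009, limma).

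Mmp14, a membrane-type protease that cuts collagen at the cell surface and activates Mmp2, was 6.54, 7.01, 8.19, 6.48, 6.71 and 6.58 on diabetic arrays, against 5.65, 6.16, 6.10, 6.18, 6.22 and 6.14 on control arrays. The groups did not overlap, and array 3 again stood above the rest. The difference was 0.84 ± 0.17 or 1.80-fold (adjusted p = 0.00045, limma), and 0.51 without diabetic array 3 and control array 1 (adjusted p = 0.0004). In a limma fit of the 8-month arrays alone, with their own spread, the adjusted p was 0.0293. At 2 months the difference was 0.03 ± 0.17. The difference of 0.82 ± 0.24 between the effects at 8 and 2 months passed narrowly (adjusted p = 0.0466, limma over the genes above the filter), and with a term for the replicate number, or without any of several single arrays, it did not. Mmp23, a membrane-anchored member of little-known function, ranged from 6.19 to 7.20 on diabetic and from 5.93 to 6.45 on control arrays, a difference of 0.32 ± 0.10 (adjusted p = 0.029, limma). Without diabetic array 3 that was 0.19 with an adjusted p of 0.121, and the call of Mmp23 was lost under 7 of 19 alternatives. In all, 5 of the 9 Mmp genes above the filter rose and none fell, beside 9.87% and 6.95% of all genes above it, and Mmp23 and Mmp7 were among the calls lost without diabetic array 3.

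**Figure D2:**
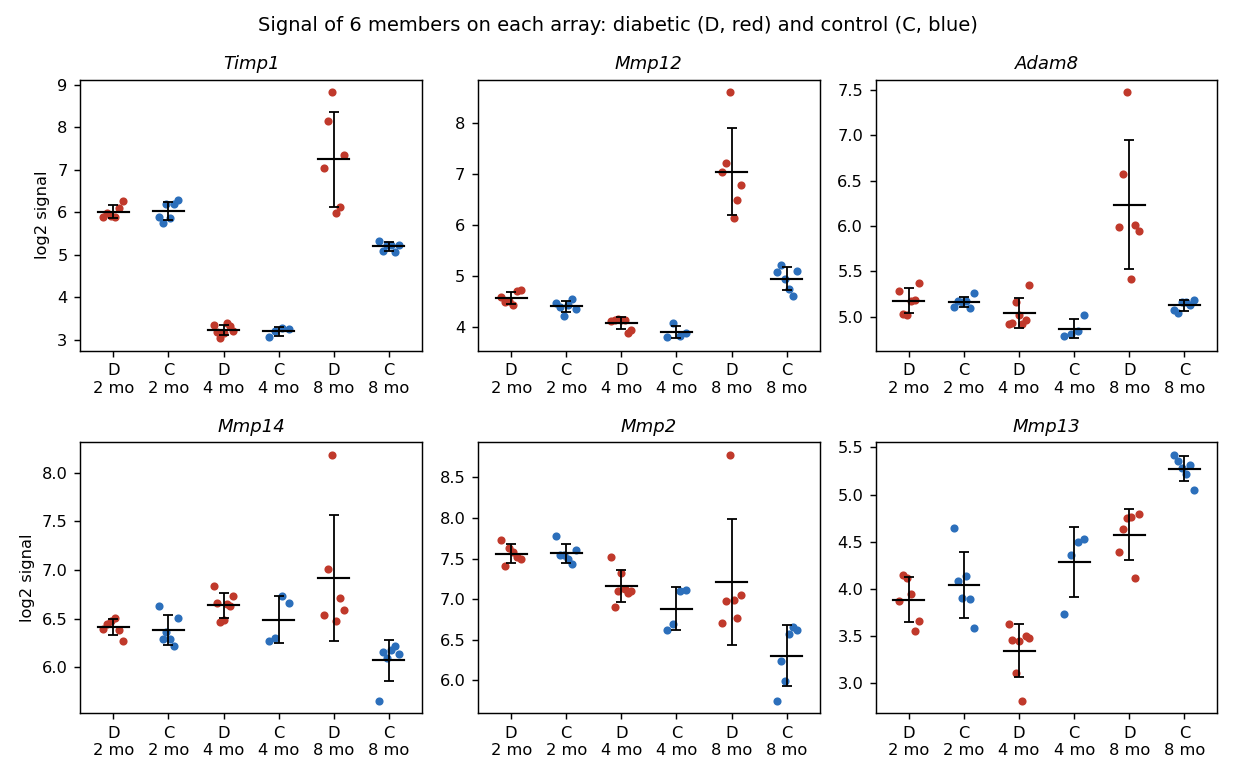
Log2 signal of 6 members on every array, with diabetic arrays (D, red) left of control arrays (C, blue) at 2, 4 and 8 months. Lines are means, bars standard deviations, and each panel has its own axis. At 8 months no diabetic point overlaps a control point in any of these 6 members, while at 2 months all 6 overlap.

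Among the ADAM proteases, 5 of the 13 above the filter rose at 8 months and none fell, beside 9.87% and 6.95% of all genes above it. Of these 5, Adam8 had passed the filter through its diabetic arrays of 8 months, and Adam17 and Adam19 were lost without diabetic array 3. Adam8, found mainly on macrophages and other leukocytes, was 5.99, 6.58, 7.48, 5.42, 6.01 and 5.94 on diabetic arrays, against 5.07, 5.04, 5.16, 5.16, 5.13 and 5.18 on control arrays. All diabetic arrays lay above the controls, which were all close to each other. The difference was 1.11 ± 0.17 or 2.16-fold (adjusted p = 1.5e-05, limma), against 0.01 ± 0.17 at 2 months and 0.17 ± 0.19 at 4 months. In a limma fit of the 8-month arrays alone, with their own spread, the adjusted p was 0.0096. The difference at 8 months exceeded that at 2 months by 1.10 ± 0.24 (adjusted p = 0.0067) and that at 4 months by 0.94 ± 0.25, where the adjusted p was 0.0637 in limma.

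Adam17, the protease that sheds tumour necrosis factor, its receptors and several epidermal growth factor ligands, was 8.70, 8.45, 8.71, 8.55, 8.71 and 8.74 on diabetic arrays, against 8.34, 8.22, 8.29, 8.42, 8.59 and 8.49 on control arrays. The groups overlapped, and the difference was 0.25 ± 0.08 or 1.19-fold (adjusted p = 0.0246, limma). The call was lost under 8 of 19 alternatives, among them the mean of all its probe sets and leaving out any of several single arrays. Leaving out diabetic array 3 gave an adjusted p of 0.0568 in limma. Its other probe sets differed by 0.17 and 0.27 and were not called. Adam10, the closest relative of Adam17, which sheds Notch and cadherins, was not called at 8 months, with 9.83 to 10.15 on diabetic and 9.63 to 9.94 on control arrays and a difference of 0.08 ± 0.09 (adjusted p = 0.613, limma).

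Adam15, which carries an integrin-binding motif, ranged from 8.55 to 8.75 on diabetic and from 8.19 to 8.55 on control arrays of 8 months. Its difference was 0.24 ± 0.06 (adjusted p = 0.0047, limma), and its groups met at 8.55. At 4 months its diabetic arrays lay at 8.61 to 8.73, all above the control arrays at 8.44 to 8.60, but the difference of 0.15 ± 0.07 was not called (adjusted p = 0.383). Adam19, which sheds neuregulin, was highest on diabetic array 3, at 7.33, and the other diabetic arrays lay between 5.92 and 6.38, against 5.74 to 6.07 on control arrays. Its difference of 0.47 ± 0.14 (adjusted p = 0.0202, limma) was 0.28 without diabetic array 3, with an adjusted p of 0.0807.

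Adam11, which lacks the catalytic motif and is best known from neurons, was 6.08 to 6.73 on diabetic and 5.91 to 6.12 on control arrays, with a difference of 0.40 ± 0.09 (adjusted p = 0.00096, limma) and its highest value on array 6. Adam5, known mainly from testis, was dim, at 4.70 to 5.09 on diabetic and 5.01 to 5.24 on control arrays, and fell by 0.27 ± 0.08 on the log2 scale (adjusted p = 0.0127, limma over all genes).

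Of the 8 Adamts genes above the filter, 1 rose and 1 fell at 8 months, which is near the 9.87% and 6.95% of all genes above it. Adamts1, which cuts aggrecan and versican, was 9.54, 9.77, 10.60, 8.90, 9.32 and 9.14 on diabetic arrays, against 8.13, 8.55, 8.65, 8.71, 9.49 and 8.95 on control arrays. The groups overlapped widely, and the difference was 0.80 ± 0.22 or 1.74-fold (adjusted p = 0.0096, limma). It was 0.59 without diabetic array 3 (adjusted p = 0.0469) and 0.47 without that array and control array 1, where it was not called (adjusted p = 0.145).

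Adamts8, which cuts aggrecan and is known for an antiangiogenic activity, was the only member above the filter that fell. It was 5.56, 5.71, 5.63, 5.81, 5.57 and 5.91 on diabetic arrays, against 5.92, 6.13, 6.09, 5.94, 6.19 and 6.28 on control arrays. The lowest control array lay just above the highest diabetic array, and the difference was -0.39 ± 0.08 or 1.31-fold lower (adjusted p = 0.00031, limma). It was called under each of 19 alternatives, between -0.43 and -0.36. At 2 and 4 months it differed by -0.10 ± 0.08 and -0.11 ± 0.08.

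Among the dimmer genes, the aggrecanase Adamts4 was 5.34, 6.12, 6.40, 5.02, 5.72 and 5.70 on diabetic arrays and 5.06 to 5.20 on control arrays, a difference of 0.60 ± 0.13 (adjusted p = 0.0017, limma over all genes). Adamts12, which cuts cartilage oligomeric matrix protein, was 5.19 to 6.19 on diabetic and 4.95 to 5.33 on control arrays, a difference of 0.44 ± 0.11 (adjusted p = 0.0047). Its other probe set differed by -0.03 and was not called. Adamtsl4 has no protease domain and binds fibrillin. It was 7.03, 7.15, 7.58, 6.65, 7.29 and 6.72 on diabetic and 6.36 to 6.76 on control arrays, a difference of 0.43 ± 0.11 (adjusted p = 0.0067), and the other 3 Adamtsl genes above the filter were not called.

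**Figure D3:**
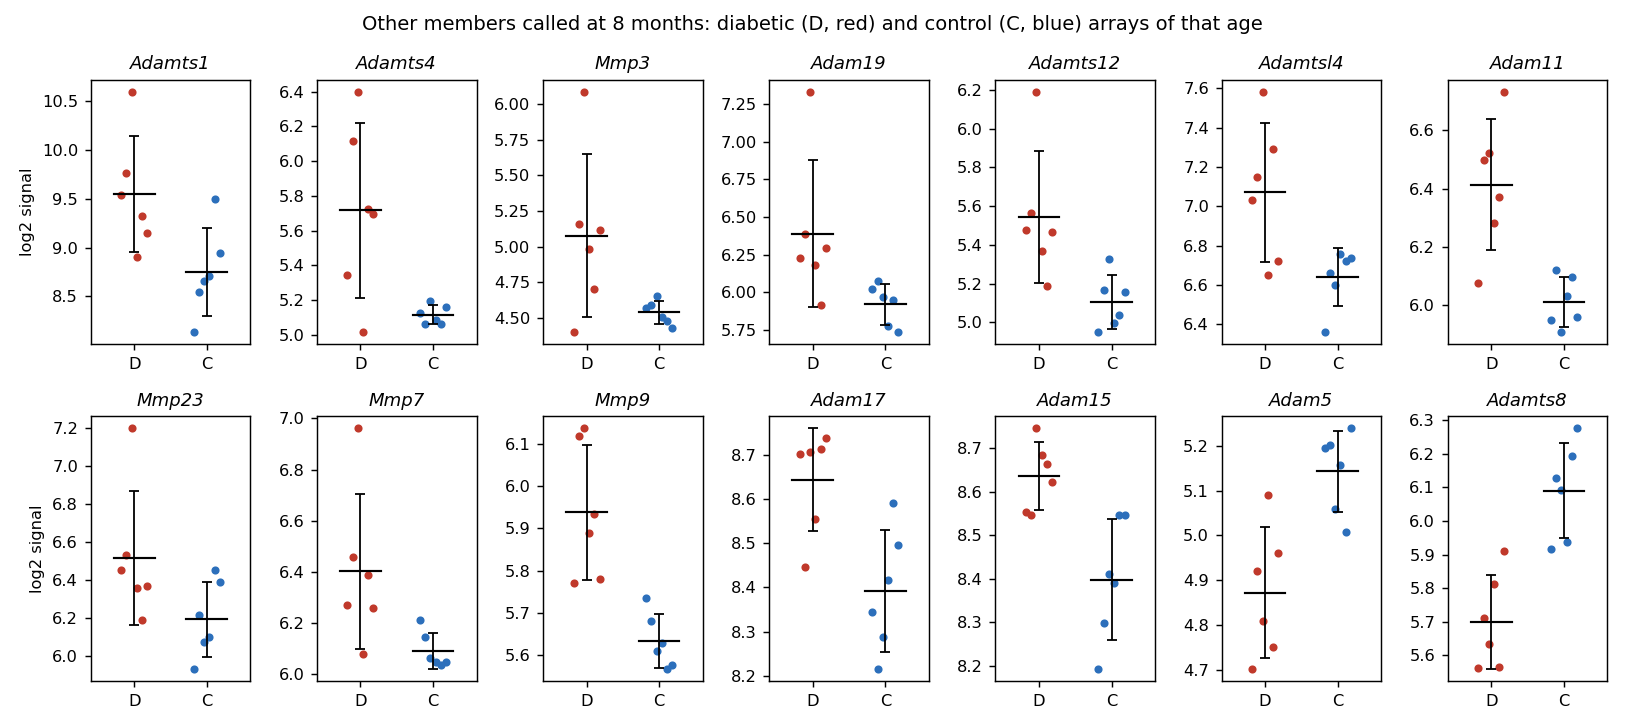
Log2 signal at 8 months of the other 14 members called at that age, with diabetic arrays (D, red) left of control arrays (C, blue). Lines are means and bars standard deviations, each panel has its own axis, and most panels show overlap of the groups.

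The rises were not even over the diabetic arrays of 8 months. Diabetic array 3 gave the highest of the 6 values in 15 of the 17 members called higher, the exceptions being Adam11 and Adam17, and array 4 gave the lowest in 8. This array correlated less with the other diabetic arrays (mean r 0.979 across genes) than they did among themselves (0.989). Without it, 8 members above the filter were called higher, and Adam17, Adam19, Mmp23 and Mmp7 were not. Without it and control array 1, which gave the lowest control value in 7 of the 17, 5 were called higher (Adam11, Adam8, Mmp14, Mmp2 and Mmp9), and Adam15, Adamtsl4 and Adamts1 were no longer called, nor, among the dimmer genes, Adamts12, Mmp3 and Adam5. Timp1, Mmp12 and Adamts4 among the dimmer genes were called higher in that fit too, at 1.75, 1.81 and 0.47.

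**Figure D4:**
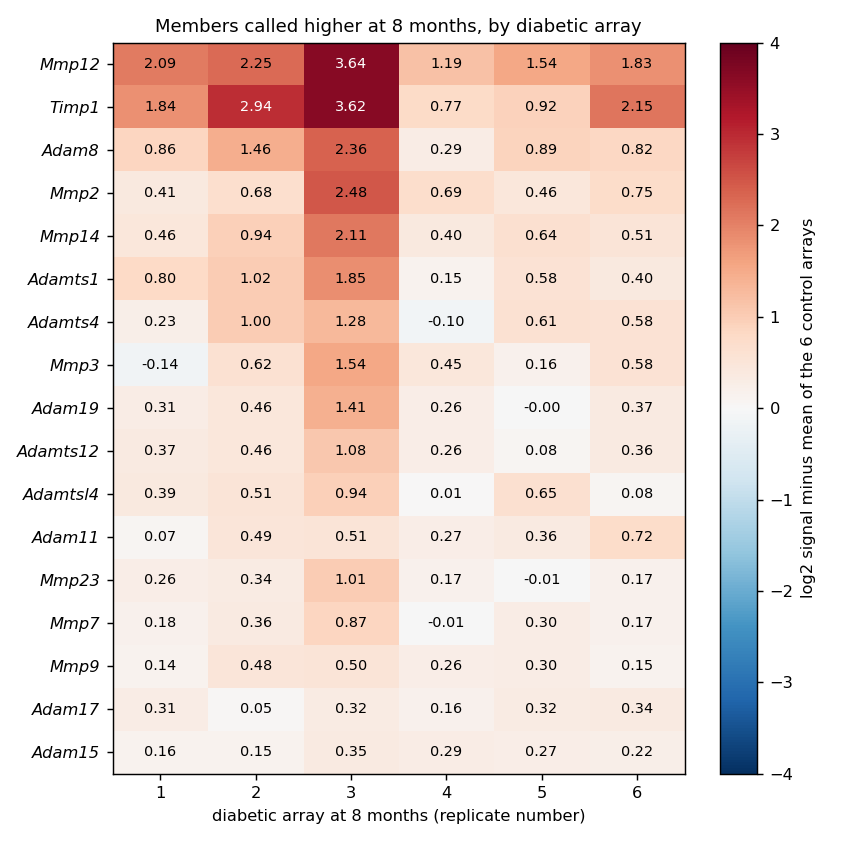
Log2 signal of the 17 members called higher at 8 months on each diabetic array, minus the mean of the 6 control arrays. Colours and printed values give the difference. Array 3 is the highest column for 15 of the 17 members, reaching 3.64 for Mmp12 and 3.62 for Timp1.

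Markers of other cells moved with these members at 8 months, when 9.87% of all genes above the filter were called higher and 6.95% lower. Of 12 macrophage markers above the filter 11 rose, and their summed signal, over all 13 listed, was 13456, 12072, 22653, 7583, 7384 and 8738 on diabetic arrays, against 4558 to 5674 on control arrays. Of 8 fibroblast markers 5 rose, with summed signals of 4731, 6166, 16193, 4399, 4030 and 5221 on diabetic arrays and 2140 to 4175 on control arrays. All 6 markers of injured tubules rose, and their summed signal was 3633 to 13211 on diabetic arrays and 2113 to 2310 on control arrays. All 5 lymphocyte markers above the filter rose, and the summed signal over all 7 listed was 1226 to 5466 against 696 to 909. None of 4 neutrophil markers above the filter was called. The summed signal over the 8 measured was 377 to 505 on diabetic and 360 to 632 on control arrays. Array 3 was the highest in the macrophage, fibroblast, injured tubule and lymphocyte sums, and control array 1 the lowest in the fibroblast sum. Without array 3, 11 macrophage, 2 fibroblast, 6 injured tubule and 4 lymphocyte markers were called higher. Markers of kidney cells moved as well. Of 6 proximal tubule markers 4 fell (Slc34a1, Lrp2, Slc5a2 and Cubn), and the summed signal given above did not overlap between the groups. Of 3 markers of the thick ascending limb 2 fell (Umod and Slc12a1), with sums of 21971 to 23851 on diabetic and 27095 to 28051 on control arrays. Of 4 podocyte markers above the filter only Nphs1 was called, lower (-0.61 ± 0.13), and of 3 collecting duct markers only Aqp2, higher (0.66 ± 0.18). None of 6 endothelial markers was called. Of 2 adipocyte markers above the filter Ucp1 fell (-2.20 ± 0.47), while the other differed by 0.85 and was not called. The adipocyte sums, over the 3 measured, overlapped, at 352 to 766 on diabetic and 82 to 1081 on control arrays. The beta-actin 3'/5' log2 ratio, a sign of RNA quality, was 0.90, 0.91, 0.78, 0.91, 0.81 and 0.95 on diabetic arrays, against 1.05, 1.03, 0.94, 1.03, 0.94 and 0.96 on control arrays. It was lowest on diabetic array 3 and highest on control array 1. With this ratio as a covariate, every named member called at 8 months was called. That fit has a common slope over the arrays of all ages. Control array 6 of 2 months weighs most on the slope, at 2.56, against at most 1.35 on diabetic arrays of that age. The fit therefore says little about RNA quality at 8 months. No summed signal was 0 on any array. Several fibroblast and injured tubule markers are also among the substrates counted here. The part of these cells in the members' differences was not tested, and in RNA of whole kidney more cells of a type and more RNA per cell cannot be told apart.

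At 4 months, 0.415% of the genes above the filter were called higher and 0.554% lower, and 0 of the 36 members in either direction with limma. Over all 70 members, 5 had an unadjusted p under 0.05, among them Mmp13. Adamts15, a protease that cuts versican and aggrecan, had 5.65, 5.40, 5.80, 5.78, 5.42, 5.40 and 5.56 on diabetic arrays, against 5.97, 5.94, 6.08 and 6.41 on control arrays. The groups did not overlap, and the difference of -0.53 ± 0.14 had an adjusted p of 0.0629 in limma. At 4 months 1 member, Adam15, had all diabetic arrays above all control arrays, as did 1.97% of all genes, and 2 had them all below, as did 1.82%. Control arrays 1 and 2 correlated less with 3 and 4 (mean r 0.991) than within each pair (0.995 and 0.996). Without arrays 3 and 4 the Adamts15 difference was -0.38.

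At 2 months, 0.754% of the genes above the filter were called higher and 1.78% lower, and again 0 of the 36 members in either direction with limma. In the fit of all genes, where 0.39% were called higher and 1.04% lower, 0 of the 70 members were called, and 6 had an unadjusted p under 0.05. No member had groups without overlap, where 0.407% of all genes had every diabetic array above the controls and 0.737% below. Nearest to the threshold were Adam11, at 0.30 ± 0.09 (adjusted p = 0.0535), and Adam10, at -0.30 ± 0.09 (adjusted p = 0.0576), both named here after their values were seen. Adam10 was 9.87, 9.83, 9.62, 9.60, 9.27 and 9.32 on diabetic arrays, against 9.90, 10.04, 9.90, 9.73, 9.89 and 9.82 on control arrays. Its lowest values were those of diabetic arrays 5 and 6. Within arrays 5 and 6 the difference was -0.56 and called (adjusted p = 0.0114, limma), and within arrays 1 to 4 it was -0.16 and not called (adjusted p = 0.362). With a term for the block of arrays 5 and 6, Adam10 was called lower (adjusted p = 0.019), and Adam11 higher. The mean over all Adam10 probe sets differed by -0.01.

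At this age arrays with the same replicate number deviated together, with a correlation of 0.246 to 0.444 in 6 of 6 pairs. Arrays 5 and 6 also stood apart from arrays 1 to 4, which can give such correlations without pairing, so pairing by number was not shown. With the replicate number as a block, Timp3 was called higher at 2 months (adjusted p = 0.0424, limma), at 0.32, and without the block its adjusted p was 0.297. Timp3 was 11.86, 11.25, 11.35, 11.62, 12.44 and 12.16 on diabetic arrays, against 11.45, 11.20, 11.33, 11.21, 12.26 and 11.29 on control arrays. Each diabetic array lay above the control array of the same number, though the groups overlapped. At 4 and 8 months Timp3 differed by 0.21 ± 0.16 and -0.04 ± 0.15 and was not called.

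The earlier differences of further named proteases first called at 8 months are given here. At 2 months Mmp2 differed by 0.00 ± 0.21, Mmp7 by 0.06 ± 0.10, Mmp9 by -0.03 ± 0.08, Adam17 by 0.16 ± 0.08 and Adamts1 by -0.03 ± 0.22. At 4 months the same genes differed by 0.29 ± 0.23, 0.18 ± 0.11, 0.03 ± 0.09, -0.03 ± 0.09 and -0.02 ± 0.24. None of these was called, but not all were small beside those of 8 months. The difference at 8 months exceeded that at 2 months by only 0.09 ± 0.11 for Adam17 (adjusted p = 0.746, limma). For Adam11, given above, it did so by 0.10 ± 0.12 (adjusted p = 0.719). Of the members not called at 8 months, the 23 above the filter differed by -0.26 to 0.33 and the 27 dimmer ones by -0.23 to 0.17. The tests of differences between ages called 2 of the 36 members for 8 against 2 months, Adam8 and Mmp14, both higher. Of all genes above the filter, 3.01% were called higher and 0.877% lower. Adam8 had passed the filter through its diabetic arrays of 8 months. The tests called 0 members for 8 against 4 months, where 0.738% were higher and 0.138% lower, and 0 for 4 against 2 months, where 0% were. In the fit of all genes the calls for 8 against 2 months were Adam8, Mmp12 and Timp1 of 70 members (2.3% of all genes higher and 0.528% lower) and for 8 against 4 months Mmp12 and Timp1 (0.643% higher and 0.0879% lower). All 3 comparisons between ages share the arrays of an age.

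Genes that act with these proteases are given from fixed lists at 8 months, for the listed genes above the filter. Over all genes above it, 9.87% were called higher and 6.95% lower at that age. Of 4 genes of plasminogen activation 1 rose, Plaur, the urokinase receptor, which was 7.72 to 8.72 on diabetic and 6.75 to 7.30 on control arrays, a difference of 0.86 ± 0.12 (adjusted p = 3.3e-06, limma). Its ligand Plau differed by -0.19 ± 0.24 and was not called. Of 14 other activators and regulators, 2 rose and 1 fell, which is near those shares. Those that rose were Rhbdf2, a partner that carries Adam17 to the cell surface (0.20 ± 0.07, adjusted p = 0.0403), and Tspan33, a tetraspanin that binds Adam10 (0.32 ± 0.11, adjusted p = 0.0402). The one that fell was the proprotein convertase Pcsk6 (-0.49 ± 0.14, adjusted p = 0.0109). Without diabetic array 3, neither Rhbdf2 nor Tspan33 was called, and Pcsk6 was called lower together with Reck, a membrane inhibitor of several Mmp proteases. Of 3 astacin proteases above the filter Mep1b, the beta chain of the brush border enzyme meprin, fell. It was 9.41 to 10.31 on diabetic and 10.70 to 11.26 on control arrays of 8 months (-0.97 ± 0.16, adjusted p = 3.1e-05, limma) and also fell at 2 months (-0.77 ± 0.16, adjusted p = 0.0045), without overlap at either age.

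At 8 months 9.87% of all genes above the filter were called higher and 6.95% lower. Of 20 cell surface substrates of ADAM proteases above it, 8 rose and 3 fell. The adhesion molecules Cd44 (2.89 ± 0.26) and Vcam1 (2.02 ± 0.25) rose most, and the syndecan Sdc1 (0.94 ± 0.15), the receptors Tnfrsf1b (0.72 ± 0.10) and Tnfrsf1a (0.28 ± 0.06), the membrane chemokines Cxcl16 (0.67 ± 0.10) and Cx3cl1 (0.46 ± 0.12) and the growth factor Btc (0.62 ± 0.22) rose too. The growth factor Egf (-0.89 ± 0.10), the cadherin Cdh2 (-0.67 ± 0.16) and Klotho, Kl (-0.46 ± 0.15), fell. Cdh2 also fell at 4 months (-0.71 ± 0.17, adjusted p = 0.027, limma). Without diabetic array 3, 7 were called higher and 2 lower, and Btc and Kl were not called.

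Beside the 9.87% of all genes above the filter called higher and the 6.95% called lower, 9 of 15 matrix substrates rose and none fell at 8 months. The substrates above the filter had a median difference of 0.52. Those that rose include the fibrillar collagen genes Col3a1 (1.64 ± 0.39), Col1a1 (1.61 ± 0.33) and Col1a2 (0.92 ± 0.27), the basement membrane collagen genes Col4a1 (0.82 ± 0.17), Col4a2 (0.77 ± 0.13) and Col18a1 (0.56 ± 0.10), and the elastin gene Eln (0.47 ± 0.14), the target of Mmp12. Without diabetic array 3, 5 were called higher (Col1a1, Col3a1, Col4a1, Col4a2 and Col18a1), and the median was 0.31. Fibronectin, Fn1, differed by 0.52 ± 0.24 and was not called. At 2 and 4 months none of these 15 was called.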

How the data were processed

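The deposited values are log2 signals of 45101 probe sets on each of 35 Affymetrix arrays; the log2 scale was taken from their range. Per the labels, total RNA was extracted from whole kidney with TRIzol and 5 ug of it was labelled. The methods of background correction, summarization and normalization were not given in the sources used here. Arrays have no read depth, and their number limits the precision. No arrays held identical values.

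The platform annotation, which can be old, gives 1 gene for 34945 probe sets, several for 932 and no gene for 9160, beside 64 controls. Probe sets with 1 gene gave 18193 genes, and 34741 of them matched a gene identifier in the RefSeq table with 0 symbols changed. The 70 members have 124 probe sets, and 7 of their symbols end in a letter, which the rule was read to allow. Group means were fitted to the 35 arrays in limma 3.58.1 (R 4.3.3) with 29 residual degrees of freedom. All groups share 1 spread per gene, so p is too small where a compared group varied more, as the diabetic arrays of 8 months did for Timp1 and Mmp12. Tests were two-sided, and p was adjusted by Benjamini-Hochberg over the 13004 genes with a mean log2 of at least 5.273, or over all 18193. The script was tested on simulated data before use. Errors after means are SD, and after differences standard errors.

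Same-numbered arrays were checked for pairing by the correlation of their deviations from the group means. It was 0.246 to 0.444 at 2 months, 0.048 to 0.177 at 4 months and -0.142 to 0.233 at 8 months. Arrays with different numbers were not compared. At 2 months arrays 1 to 4 correlated more among themselves (mean r 0.992) than with arrays 5 and 6 (0.976). Such blocks can make same-numbered arrays deviate together without pairing. Pairing by number was therefore not shown, and the labels do not state it. Named members are those called at any age or without overlap at an age, and Timp1 to Timp4, Mmp2, Mmp7, Mmp9, Mmp14, Adam10, Adam17, Adamts1 and Adamts13, the last not analysed here. The members and lists were chosen with earlier results of these data known. Lists were counted, with no set test. Alternatives were the mean of all probe sets, quantile normalization, a fit of 1 age alone, the replicate block, blocks of arrays left out, each array left out in turn and no filter. Added after seeing the data were the same settings for the dim members, the beta-actin 3'/5' ratio as a covariate at 8 months, every probe set on its own, and 8 months without diabetic array 3 and control array 1.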

Additional observations from a re-analysis of the deposited data

Results flagged for a closer look

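Single arrays stood apart from their group in 16 of 150 tests, over 25 named members in each of 6 groups of 4, 6 or 7 arrays, by Dixon's ratio, where chance alone gives about 1 in 20. Of these, 7 were diabetic array 3 of 8 months as the highest, namely Timp2 (10.51), Adam10 (10.15), Mmp2 (8.78), Mmp14 (8.19), Adam19 (7.33), Mmp23 (7.20) and Adamts12 (6.19). Control array 1 of 8 months was the lowest for Timp3 (11.91) and Mmp14 (5.65), and diabetic array 2 of 8 months the highest for Timp4 (5.69). At 2 months, control array 6 stood apart for Adam17 (8.52, lowest), Mmp9 (6.30, highest) and Adam5 (3.74, highest), and control array 5 for Timp3 (12.26, highest). The beta-actin 3'/5' log2 ratio of control array 6 was 2.56, against at most 1.35 on diabetic arrays of 2 months, and its part was not tested. At 4 months, control array 1 was the lowest for Adam17 (8.00) and control array 4 the highest for Adamts12 (4.57).

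The effect of diabetes differed between ages by a test of the difference itself in 4 members, Timp1 and Mmp12 in the fit of all genes and Adam8 and Mmp14 in that of genes above the filter. Mmp14 was not called in the fit of all genes (adjusted p = 0.0519) or with the replicate block. At 8 against 2 months it was larger by 2.06 for Timp1, 1.92 for Mmp12, 1.10 for Adam8 and 0.82 for Mmp14, with adjusted p of 0.00083, 9.8e-05, 0.0067 and 0.0466 in limma. At 8 against 4 months it was larger by 2.01 for Timp1 and 1.91 for Mmp12, with adjusted p of 0.0057 and 0.0012 in limma. On every array of 4 months both genes lay under the filter, so a difference there may have been compressed, which was not tested.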

How the results depend on the processing

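No result of a named member that was called changed its sign under any alternative, and the called members Timp1, Mmp12, Adam8, Mmp14, Mmp9, Adam11, Adamts4, Adamts8 and Mmp13 at 8 months passed under each alternative run for them. Of the 12 members called higher at 8 months, 5 were called without diabetic array 3 and control array 1; leaving out single arrays gave 8 to 13 higher and 1 lower, and with no filter 3 of 70 were lower. Among the dim members at 8 months the count of 5 higher became 3 and that of 2 lower became 1 without those 2 arrays, and leaving out single arrays gave 4 to 5 higher and 2 to 3 lower. Quantile normalization gave 4 dim members lower, a split of 5 higher to 4 lower; it shifted the median of all genes by at most 0.02, but moved the calls over all genes above the filter at 8 months to 1263 higher and 1268 lower, against 1283 and 904. At 2 months the replicate block gave 1 higher (Timp3, adjusted p = 0.0424 in limma) and the term for arrays 5 and 6 gave 1 (Adam11); quantile normalization, arrays 5 and 6 alone and that term each gave 1 lower (Adam10); leaving out single arrays gave 0 to 1 in each direction. The block also ended the call of Mmp23 at 8 months (adjusted p = 0.0584) and reduced the 2 larger effects at 8 than 2 months to 1. At 4 months a fit of that age alone called 1 lower (Adamts15), no filter 1 (Mmp13) and single arrays left out 0 to 2; without controls 3 and 4 the dim count was 0, and 1 for every single array left out. Effects larger at 8 than 2 months numbered 4 with quantile normalization and 1 to 3 with single arrays left out, and in dim members 4 and 2 to 3, against 2. Effects larger at 8 than 4 months numbered 1 with quantile normalization (Adam8), 2 without the filter and 0 to 1 with single arrays left out, against 0. The cause of these changes was not tested. Of 14 other probe sets of 10 called members, 13 had the same sign at 8 months and 7 were called. Arrays give no depth, and their number limits what could be called.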
